A study of Homo sapiens with 6 samples.

Results

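The pocket proteins, the E2F transcription factors and the cell cycle factors FOXM1 and MYBL2 were followed in C4-2 cells, a castration-resistant prostate cancer line derived from LNCaP. The 10 genes were RB1, RBL1, RBL2, E2F1, E2F2, E2F3, E2F7, E2F8, FOXM1 and MYBL2, chosen by name with earlier results of these data known. All 10 were present among the 14456 genes of the deposited table. PolyA RNA was sequenced from 3 libraries of cells given IPI-9119, an inhibitor of fatty acid synthase, at 100 nM for 6 days, and from 3 libraries of cells given 0.1% DMSO as vehicle, whose duration the labels do not state. All were grown in RPMI with fetal bovine serum. Both groups were of a single cell line, and the labels leave unsaid whether each replicate was its own culture. The p-values therefore cover only how these libraries vary, and that variation may be technical. Values are normalised counts, that is, reads per gene scaled by the authors with 1 size factor per library.

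The pocket proteins encoded by RB1, RBL1 and RBL2 bind E2F factors and keep their target genes silent. Kinases built from cyclins and cyclin-dependent kinases phosphorylate the pocket proteins, which releases the activator E2Fs (E2F1, E2F2 and E2F3) to switch on genes of DNA replication. E2F7 and E2F8 are atypical E2Fs that repress the same genes later in S phase. MYBL2, which encodes B-MYB, joins the MuvB core complex and then FOXM1 to switch on mitotic genes. RB1 loss is a known feature of aggressive, treatment-resistant prostate cancer.

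With IPI-9119, 9 of the 10 genes rose and RB1 fell. MYBL2 and E2F1 had the largest differences, 4.78-fold and 4.17-fold on the log2(value + 1) scale used for all fold changes, while RBL2 differed by 1.11-fold. By limma with Benjamini-Hochberg adjustment over 14437 genes, 9 members passed as higher at an adjusted p under 0.05, against 31.3% of all genes tested, and 1 as lower, against 31.4%. Of the 10, 6 rose at least 2-fold, against 7.92% of all genes. The median log2 fold change of the members was 1.42, against 0.0017 over all genes tested. No member's IPI-9119 libraries overlapped its DMSO libraries, 9 being higher (34.0% of all genes) and 1 lower (33.9% of all genes). Because the members were chosen with earlier results known, these comparisons with all genes are a description.

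The libraries held 19090749 to 23448035 recovered reads, the IPI-9119 libraries being shallower. All 9 luminal prostate markers were measured, with a summed level of 254776 to 265298 normalised counts in the DMSO libraries and 148189 to 153192 in the IPI-9119 libraries; 8 fell and FOLH1 rose. Of the basal epithelial markers 1 of 5 was measured (summed level at most 19.8), of the fibroblast markers 3 of 6 (at most 175), of the leukocyte and endothelial markers 2 of 8 (at most 75.3) and of the neuroendocrine markers 4 of 8 (204 to 247 with DMSO and 228 to 234 with IPI-9119). KRT5, KRT14, TP63, PTPRC, PECAM1 and CHGA were not among the genes analysed here. Whether the fall of the luminal markers bears on the members was not tested. The share of cells in each cell cycle phase was not measured, and in bulk RNA more cells in a phase and more RNA per cell cannot be told apart. The labels give no batch, so a batch that follows the groups cannot be told apart from the treatment.

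Several of these genes are known as targets of E2F themselves, so their promoters are shown with any E2F consensus letters. RefSeq promoter windows (GRCh38.p14, 250 bases before to 50 after a transcription start) were searched on both strands for TTTCCCGC, TTTCGCGC, TTTGCCGC and TTTGGCGC, which spell out the E2F consensus, and for TTTGAA and TTCGAA, the cell cycle homology region (CHR) bound by MuvB. Of the 35116 windows, 3.31% held an E2F match and 16.4% a CHR match. A window was on hand for 8 members. That of RB1 lay at an internal start, 172724 bases from the most upstream start in GENCODE 29, and is not read further. E2F matches stood in windows of 4 members. The windows with an E2F match are shown up to the base before the first transcribed base in RefSeq or GENCODE, with matches in capitals. The windows of RBL2, E2F7 and MYBL2 held no E2F match, which says only that these letters are not in them.
RBL1 (chr20:37095998-37096247, minus strand): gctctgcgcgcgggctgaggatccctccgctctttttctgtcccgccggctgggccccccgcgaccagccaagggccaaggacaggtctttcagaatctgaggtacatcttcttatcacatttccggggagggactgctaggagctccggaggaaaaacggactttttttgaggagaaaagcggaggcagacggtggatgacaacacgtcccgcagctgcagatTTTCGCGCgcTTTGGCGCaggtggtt
E2F1 (chr20:33686405-33686635, minus strand): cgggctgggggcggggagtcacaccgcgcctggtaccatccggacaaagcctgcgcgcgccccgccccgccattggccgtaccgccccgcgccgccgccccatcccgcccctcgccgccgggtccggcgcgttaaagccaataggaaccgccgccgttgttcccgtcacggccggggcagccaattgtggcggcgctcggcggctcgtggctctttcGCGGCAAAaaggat
E2F2 (chr1:23531234-23531483, minus strand): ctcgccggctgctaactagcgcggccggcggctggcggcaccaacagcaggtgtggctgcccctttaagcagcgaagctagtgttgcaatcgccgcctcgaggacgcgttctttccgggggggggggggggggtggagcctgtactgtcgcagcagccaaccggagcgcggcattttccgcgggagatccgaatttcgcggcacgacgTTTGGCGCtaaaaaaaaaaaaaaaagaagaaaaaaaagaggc
E2F3 (chr6:20401629-20401878, plus strand): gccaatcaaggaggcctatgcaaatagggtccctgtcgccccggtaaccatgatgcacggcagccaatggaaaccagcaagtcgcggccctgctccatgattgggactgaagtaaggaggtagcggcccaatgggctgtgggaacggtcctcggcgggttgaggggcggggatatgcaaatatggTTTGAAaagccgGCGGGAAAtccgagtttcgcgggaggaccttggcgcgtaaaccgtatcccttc

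In RBL1 both matches (TTTCGCGC and TTTGGCGC) lay side by side, 26 to 9 bases before the RefSeq start. E2F1 held a match on the opposite strand 33 to 26 bases before its RefSeq start. It held another, TTTGGCGC, 20 to 13 bases before that start. Its first base is the last base of the run shown, and the GENCODE start lies at its next base, so it is not in capitals. The match of E2F2 lay 42 to 35 bases before the start, and that of E2F3, read on the opposite strand, 53 to 46 bases before it. A CHR match (TTTGAA) lay 65 to 60 bases before the start of E2F3, and another 24 to 29 bases into the transcript in a window of RBL2, which is not shown. A second window of E2F3, at a start 1708 bases from its most upstream GENCODE start, held no E2F or CHR match and is not shown. A match is a description of the letters, not evidence of binding.

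**Figure D1:**
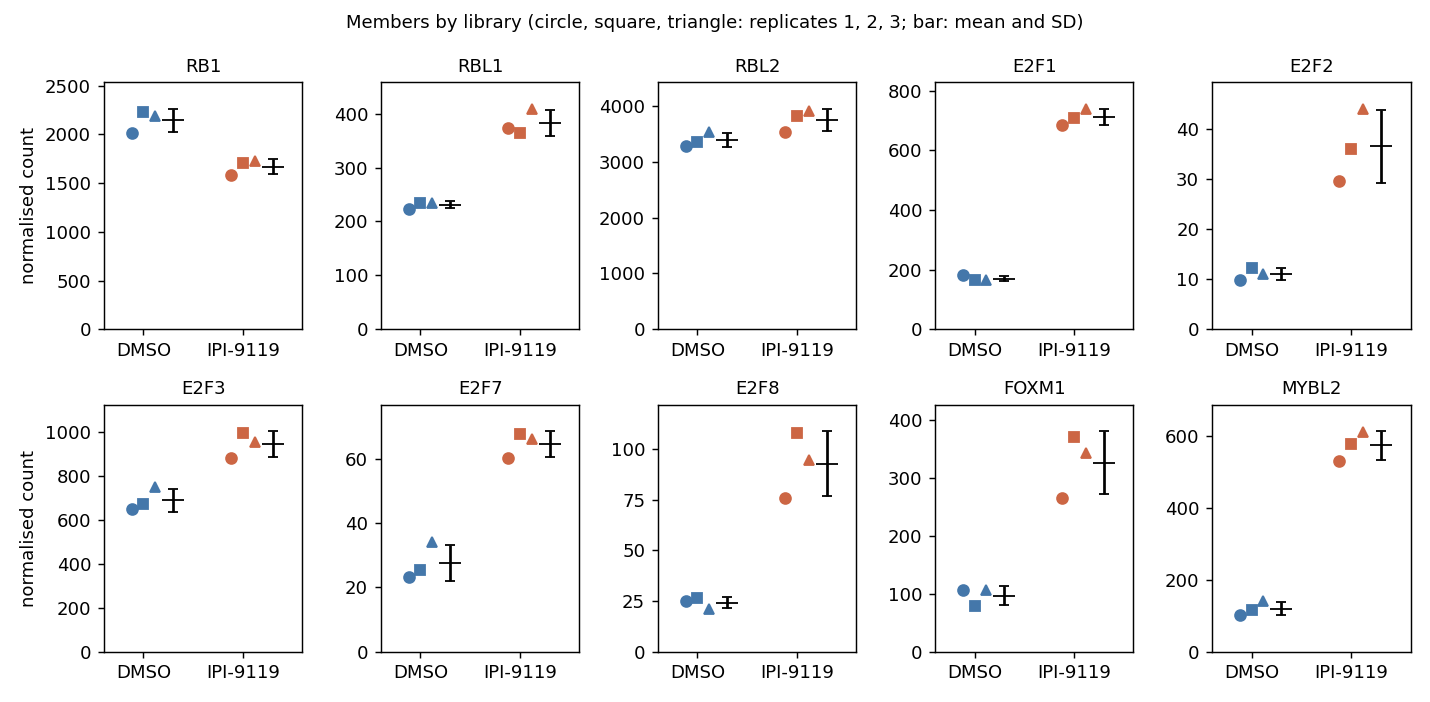
Normalised counts (vertical axes, from 0) of the 10 genes in each DMSO and IPI-9119 library, with circles, squares and triangles for replicates 1, 2 and 3 and bars for the mean and SD of each group. In every panel the groups do not overlap, and RB1 is the panel in which the IPI-9119 libraries are lower.

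Among the pocket proteins, RB1 fell, RBL1 rose and RBL2 rose slightly. RB1, the retinoblastoma tumour suppressor (ENSG00000139687, chromosome 13, 48303726 to 48599436, plus strand, GRCh38, GENCODE 29), stood at 2008, 2231 and 2190 normalised counts with DMSO and at 1579, 1704 and 1726 with IPI-9119. All IPI-9119 libraries were below all DMSO libraries, and the means were 2143 ± 118 and 1670 ± 78.9 (SD, n = 3). The log2 fold change was -0.36 (SE 0.059, limma adjusted p 0.000105). RB1 was thus lower by a modest amount while remaining one of the most abundant members.

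RBL1 encodes p107, the pocket protein whose own gene is a target of E2F (ENSG00000080839, chromosome 20, 36996349 to 37095995, minus strand). It gave 223, 235 and 235 normalised counts with DMSO and 374, 364 and 409 with IPI-9119. The DMSO libraries lay close together and every IPI-9119 library was above them. The log2 fold change was 0.72 (SE 0.094, limma adjusted p 1.2e-05).

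RBL2 encodes p130, the pocket protein of resting cells (ENSG00000103479, chromosome 16, 53433977 to 53491649, plus strand). Its values were 3281, 3352 and 3525 normalised counts with DMSO and 3528, 3815 and 3904 with IPI-9119. The lowest IPI-9119 library was 1.001 times the highest DMSO library, so the groups nearly met. The log2 fold change was 0.15 (SE 0.053, limma adjusted p 0.0257), and 7 of 18 alternative settings ended the call, among them leaving out DMSO replicate 1 (0.12, adjusted p 0.100) or 2 (0.14, 0.0709) and IPI-9119 replicate 2 (0.13, 0.0923) or 3 (0.12, 0.110). Exons of RBL2 overlap those of AKTIP on the opposite strand over 610 bases, and the strand setting of the counting is not known. AKTIP itself differed by -0.08 on the log2 scale (adjusted p 0.271).

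The activator E2Fs rose by different amounts. E2F1 (ENSG00000101412, chromosome 20, 33675683 to 33686404, minus strand) gave 181, 164 and 164 normalised counts with DMSO and 686, 708 and 739 with IPI-9119. The lowest IPI-9119 library was 3.80 times the highest DMSO library. Its log2 fold change was 2.06 (SE 0.089, limma adjusted p 1.9e-10), and 328 of the 14437 genes had a larger one.

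E2F2 (ENSG00000007968, chromosome 1, 23506430 to 23531220, minus strand) was the least abundant member, with 9.83, 12.3 and 11.02 normalised counts with DMSO and 29.5, 36.0 and 43.99 with IPI-9119. These values rest on few reads, 36 over the DMSO libraries. The groups did not overlap and the log2 fold change was 1.63 (SE 0.29, limma adjusted p 0.000244), which the added 1 count understates at this level.

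E2F3 (ENSG00000112242, chromosome 6, 20401906 to 20493715, plus strand) was the most abundant activator with DMSO. Its libraries gave 651, 673 and 749 normalised counts with DMSO and 882, 999 and 958 with IPI-9119. All IPI-9119 libraries were higher, by a log2 fold change of 0.45 (SE 0.076, limma adjusted p 0.000121). The gene makes transcripts from more than 1 promoter, E2F3a and E2F3b, which gene counts do not separate.

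Both atypical E2Fs rose from low levels. E2F7 (ENSG00000165891, chromosome 12, 77021247 to 77065580, minus strand) gave 23.2, 25.5 and 34.0 normalised counts with DMSO and 60.1, 67.6 and 66.0 with IPI-9119, from 90 and 179 reads in all. Its groups were apart, DMSO replicate 3 being the highest of its group, and the log2 fold change was 1.21 (SE 0.22, limma adjusted p 0.000242). E2F8 (ENSG00000129173, chromosome 11, 19224063 to 19241620, minus strand) gave 25.03, 26.4 and 21.1 normalised counts with DMSO and 75.9, 108.0 and 94.6 with IPI-9119, from 79 and 257 reads in all. The IPI-9119 libraries of E2F8 spread more widely than the DMSO libraries but all lay above them, with a log2 fold change of 1.89 (SE 0.21, limma adjusted p 2.9e-06).

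FOXM1 and MYBL2, the factors of the later, mitotic wave, rose too. FOXM1, a forkhead factor that switches on mitotic genes (ENSG00000111206, chromosome 12, 2857681 to 2877155, minus strand), gave 106, 78.3 and 106 normalised counts with DMSO and 265, 370 and 342 with IPI-9119. DMSO replicate 2 and IPI-9119 replicate 1 were the low libraries of their groups, and the groups did not overlap. The log2 fold change was 1.74 (SE 0.16, limma adjusted p 3.0e-07). Exons of FOXM1 overlap those of ITFG2 on the opposite strand over 781 bases, and ITFG2 differed by 0.07 on the log2 scale (adjusted p 0.722).

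MYBL2 (ENSG00000101057, chromosome 20, 43667019 to 43716496, plus strand) had the largest difference of the 10 genes. Its libraries gave 103, 117 and 140 normalised counts with DMSO and 531, 578 and 610 with IPI-9119. The lowest IPI-9119 library was 3.81 times the highest DMSO library. The log2 fold change was 2.26 (SE 0.12, limma adjusted p 1.5e-09), and 258 genes had a larger one.

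Within the IPI-9119 group, replicate 1 was the lowest library for 9 of the 10 members and replicate 2 for RBL1. Across genes, reads of replicate 1 differed from replicates 2 and 3 by a chi-square per degree of freedom of 7.55 and 9.76. Replicates 2 and 3 of IPI-9119 differed by 2.31, and pairs of DMSO libraries by 4.27 to 5.34. Over all genes tested replicate 1 was the lowest of that group for 41.3%. Leaving it out ended no member's call, and gave a log2 fold change of 1.88 for FOXM1 and 2.02 for E2F8.

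**Figure D2:**
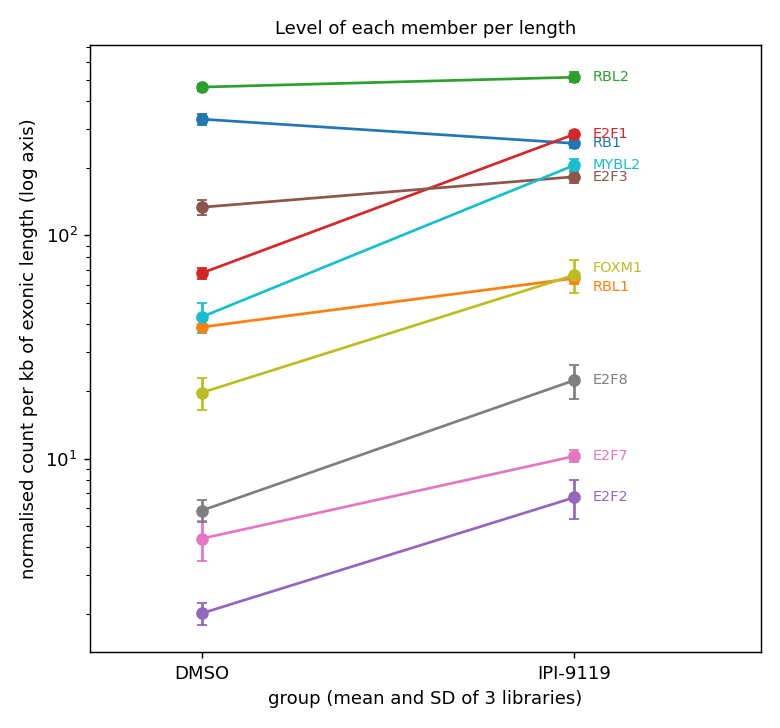
Level of each member in normalised counts per kb of exonic length (log axis) with DMSO and with IPI-9119, as mean and SD of 3 libraries joined by a line. By this length E2F1 passes E2F3 and RB1, MYBL2 rises from 43.1 to 206, and RBL2 is highest in both groups. Undivided counts do not show E2F1 passing either gene.

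Levels were compared between genes per kb of merged exonic length. With DMSO the order was RBL2 (463 ± 17.1 normalised counts per kb, SD, n = 3), RB1 (332 ± 18.4), E2F3 (134 ± 10.04), E2F1 (67.8 ± 3.75), MYBL2 (43.1 ± 6.69), RBL1 (38.8 ± 1.123), FOXM1 (19.8 ± 3.26), E2F8 (5.84 ± 0.663), E2F7 (4.37 ± 0.899) and E2F2 (2.02 ± 0.223). Neighbours in that order did not overlap between libraries, except MYBL2 with RBL1 and E2F8 with E2F7. With IPI-9119 the order became RBL2 (512 ± 26.8 normalised counts per kb), E2F1 (284 ± 10.6), RB1 (259 ± 12.2), MYBL2 (206 ± 14.3), E2F3 (183 ± 11.5), FOXM1 (66.4 ± 11.1), RBL1 (64.3 ± 3.95), E2F8 (22.4 ± 3.89), E2F7 (10.2 ± 0.629) and E2F2 (6.69 ± 1.33). There MYBL2 overlapped with E2F3 and FOXM1 with RBL1. E2F1 thus stood below RB1 per kb of merged exonic length with DMSO and above it with IPI-9119. That crossing depends on the length used. RB1 has 6452 merged exonic bases but 4793 in its longest transcript, while E2F1 has 2503 by both. Undivided, the IPI-9119 means of RB1 (1670 normalised counts) and E2F3 (946) both stayed above that of E2F1 (711).

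Within each library, every gene was also read as a share of the summed level per length of its family. Among the pocket proteins the share of RB1 was 39.1%, 41.0% and 39.5% with DMSO and 31.0%, 31.2% and 30.8% with IPI-9119. The share of RBL1 went from 4.66% ± 0.0625 to 7.70% ± 0.407 and that of RBL2 from 55.5% ± 1.04 to 61.3% ± 0.267 (SD, n = 3). RBL2 was the most abundant pocket protein transcript in each of the 6 libraries.

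Among the activator E2Fs, E2F3 had the largest share in all 3 DMSO libraries and E2F1 in all 3 IPI-9119 libraries. The share of E2F1 was 36.1%, 33.1% and 30.9% with DMSO and 60.9%, 58.6% and 60.4% with IPI-9119, a difference of 26.6 percentage points. E2F3 went from 65.7% ± 2.59 to 38.6% ± 1.23, and E2F2 from 0.995% ± 0.123 to 1.41% ± 0.227 (SD, n = 3). Shares within a family are not independent, since a gain of any gene lowers the rest. The groups did not overlap in any of the 6 shares. Each gave p = 0.1 by a two-sided exact permutation test, the smallest that 3 against 3 libraries allow (0.1 after Benjamini-Hochberg adjustment over the 6 shares), so this design cannot reach a p of 0.05 for them.

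**Figure D3:**
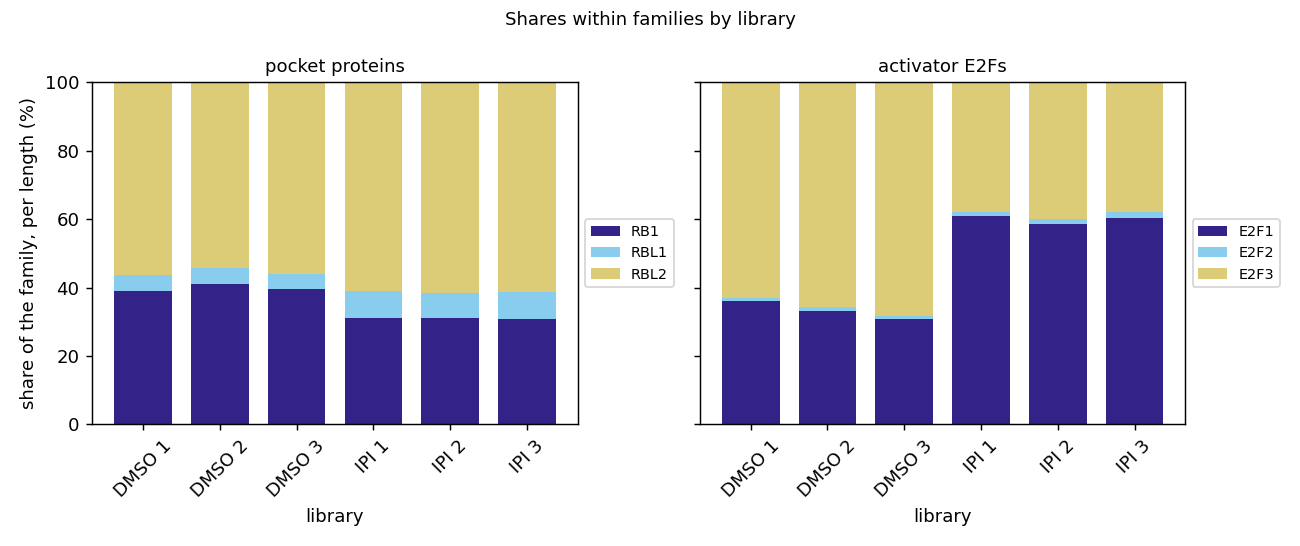
Share (%) of each gene in the summed level per length of its family, by library, for the pocket proteins and the activator E2Fs. RB1 takes 39.8% on average with DMSO and 31.0% with IPI-9119, and E2F1 33.3% and 59.9%.

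Each member was also read after a correction of the log2 values for gene length and GC content. The correction takes out of each library any trend with length and GC content in its deviation from the mean of all libraries. A treatment difference that follows length or GC content is therefore taken out too, whether technical or real. Which of these a change after the correction reflects was not tested, here or for the gene lists below. The exonic lengths ran from 2503 bases for E2F1 to 7320 for RBL2, and the GC content of the longest transcript from 37.3% for RB1 to 62.5% for E2F1. After the correction RB1 stood at -0.54 on the log2 scale (limma adjusted p 2.2e-07), RBL1 at 0.55 and E2F3 at 0.31. E2F1 (2.10), E2F2 (1.85), E2F7 (1.11), E2F8 (1.69), FOXM1 (1.79) and MYBL2 (2.26) kept their calls. RBL2 did not pass (0.10, adjusted p 0.0837).

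**Figure D4:**
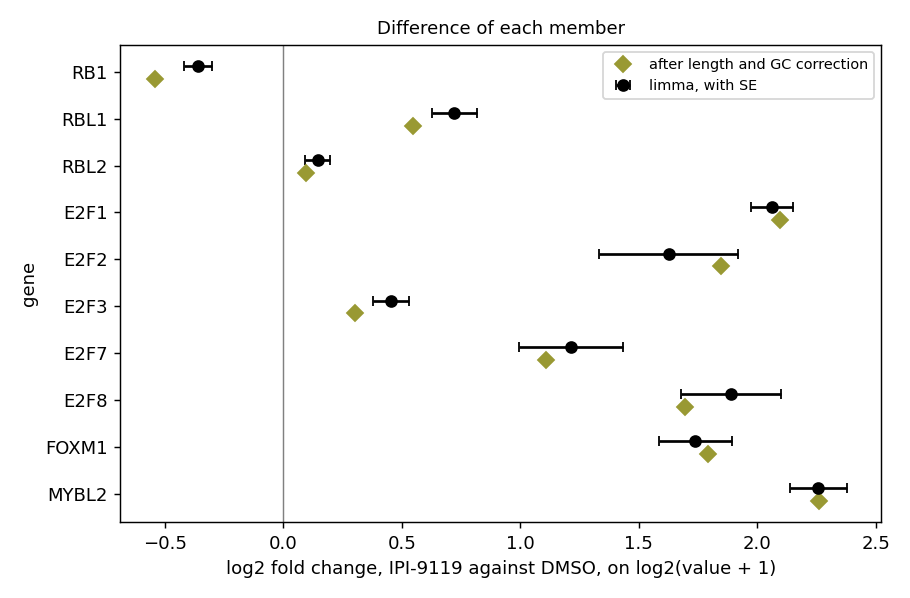
Log2 fold change of each member (horizontal axis, on log2(value + 1)), with the SE of the limma fit as bars and the value after the length and GC correction as diamonds. RB1 is the member left of 0, at -0.36 and -0.54.

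Of 12 other genes that build E2F and MuvB complexes, 4 rose, 1 fell and 7 missed the threshold, around a median of 0.15 on the log2 scale, where 31.3% of all genes rose and 31.4% fell. With quantile scaling 7 rose and 2 fell, and with 1 library left out 3 to 5 rose and 1 to 2 fell, 2 without DMSO replicate 1 or 3 or IPI-9119 replicate 1 or 2. LIN9, a core subunit of MuvB, rose from a mean of 210 ± 30.1 with DMSO to 421 ± 18.2 with IPI-9119 (normalised counts ± SD, n = 3; 1.01 on the log2 scale). DYRK1A, the kinase that favours assembly of the repressive DREAM complex, fell from 1232 ± 48.6 to 756 ± 56.3 (-0.71, and -0.45 after the length and GC correction). E2F6, a repressor E2F that does not bind pocket proteins, rose by a log2 fold change of 0.25, a call that the correction ended (0.04, adjusted p 0.751), as did leaving out DMSO replicate 1 (0.20, adjusted p 0.144) or 2 (0.26, adjusted p 0.0658) or IPI-9119 replicate 3 (0.18, adjusted p 0.156). E2F4, the main E2F partner of RBL1 and RBL2, did not pass (-0.21, adjusted p 0.101), while E2F5 (0.24) and the dimer partner TFDP1 (0.18) passed without the correction and not with it (0.04, adjusted p 0.627, and -0.01, adjusted p 0.860). E2F5 also missed the threshold without DMSO replicate 3 (0.22, adjusted p 0.0512). After the correction 2 of the 12 rose and 2 fell.

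Of 9 tested cyclins, kinases and activators that act on RB, 7 rose, 1 fell and 1 missed the threshold. The median was 1.08 on the log2 scale, where 31.3% of all genes rose and 31.4% fell. CCNA2, which encodes cyclin A2, rose by 3.73, CCNE2, a cyclin E gene, from a mean of 73.5 ± 15.4 with DMSO to 373 ± 18.5 with IPI-9119 (normalised counts ± SD, n = 3; 2.35 on the log2 scale), and CDC25A, a phosphatase that activates the kinases, by 1.44. CDK2 (1.11) and CCNE1 (1.08) rose, and CDK4 did by 0.70. CCND1, encoding cyclin D1, the partner of CDK4 and CDK6, went the other way, from 4885 ± 292 to 3138 ± 340 normalised counts (-0.64, limma adjusted p 6.6e-06). CDK6 did not pass (0.05, adjusted p 0.693).

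Of 7 genes for inhibitors of these kinases, 5 rose, 1 fell and 1 missed the threshold. Their median was 0.55 on the log2 scale, where 31.3% of all genes rose and 31.4% fell. With DESeq2, or without DMSO replicate 2 or 3 or IPI-9119 replicate 1 or 3, 4 of the 7 rose. CDKN2C, encoding p18, rose from a mean of 99.5 ± 11.7 with DMSO to 483 ± 26.7 with IPI-9119 (normalised counts ± SD, n = 3; 2.27 on the log2 scale). CDKN2A, whose locus encodes p16 and ARF, went from 116 ± 27.6 to 260 ± 20.9 (1.18), and CDKN1A, encoding p21, rose by 1.08. CDKN1B, encoding p27, fell by a small amount (-0.16, limma adjusted p 0.0105), and did not pass without IPI-9119 replicate 3 (-0.13, adjusted p 0.0553). After the length and GC correction 3 of the 7 rose and 1 fell.

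Of 17 genes for chromatin proteins that pocket proteins recruit, 4 rose, 7 fell and 6 missed the threshold, around a median of -0.10 on the log2 scale, where 31.3% of all genes rose and 31.4% fell. Without DMSO replicate 2 or 3, 2 of them rose, and the median was -0.33 without IPI-9119 replicate 3, -0.03 without IPI-9119 replicate 2 and -0.18 without DMSO replicate 3. It was also -0.18 once length and GC content were corrected for, with 4 of the 17 higher and 9 lower. SMARCA4, a remodelling ATPase, fell from a mean of 986 ± 163 with DMSO to 147 ± 20.3 with IPI-9119 (normalised counts ± SD, n = 3), or -2.73 on the log2 scale, which became -1.43 after the length and GC correction. SIN3B, a corepressor, fell by 1.34 on the log2 scale (-0.55 after the correction) and ARID4B, an RB-binding corepressor subunit, fell by 1.102. SUV39H1, a histone methyltransferase, rose (0.46, adjusted p 0.0182), and missed the threshold when DMSO replicate 2 (0.36, adjusted p 0.0813) or 3 (0.43, adjusted p 0.0583) was left out.

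Ubiquitin ligase subunits that act on E2Fs, cyclins and their inhibitors gave 4 higher and 4 lower of 8 (median log2 fold change 0.07). The shares of all genes tested were 31.3% higher and 31.4% lower. SKP2, which targets p27 and is an E2F target, rose from a mean of 286 ± 24.7 with DMSO to 739 ± 15.6 with IPI-9119 (normalised counts ± SD, n = 3; 1.37 on the log2 scale), and FBXO5, an inhibitor of the anaphase-promoting complex, by 1.05. FZR1, an activator of the anaphase-promoting complex, fell (-0.66), but its value was 0.0016 after the length and GC correction (adjusted p 0.989). After the correction 4 of the 8 rose and 1 fell.

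Most genes listed as targets of these factors also rose. Both lists were chosen with earlier results of these data known, so their counts are a description. For scale, 31.3% of all genes tested rose, 31.4% fell and 7.92% rose at least 2-fold. Of 30 replication genes known as E2F targets, 29 rose and 1, POLA1, did not pass (0.05, adjusted p 0.659), with a median log2 fold change of 1.33. The largest rises were those of CDC45, a replication fork helicase factor (2.81), TYMS, thymidylate synthase (2.79), and RRM2, a ribonucleotide reductase subunit (2.70). Of 30 mitotic genes known as targets of B-MYB, MuvB and FOXM1, 28 rose, 1 fell and 1, CENPF, did not pass (-0.44, adjusted p 0.0562), with a median of 2.58. BIRC5, encoding survivin (3.42), HMMR, a spindle protein gene (3.32), and KIF20A, a mitotic kinesin (3.04), rose most. CENPE, a long kinetochore motor gene, fell from a mean of 39.3 ± 14.6 with DMSO to 19.1 ± 1.45 with IPI-9119 (normalised counts ± SD, n = 3; -0.94 on the log2 scale, limma adjusted p 0.0127), and missed the threshold when DMSO replicate 2 was left out (-0.68, adjusted p 0.0894).

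**Figure D5:**
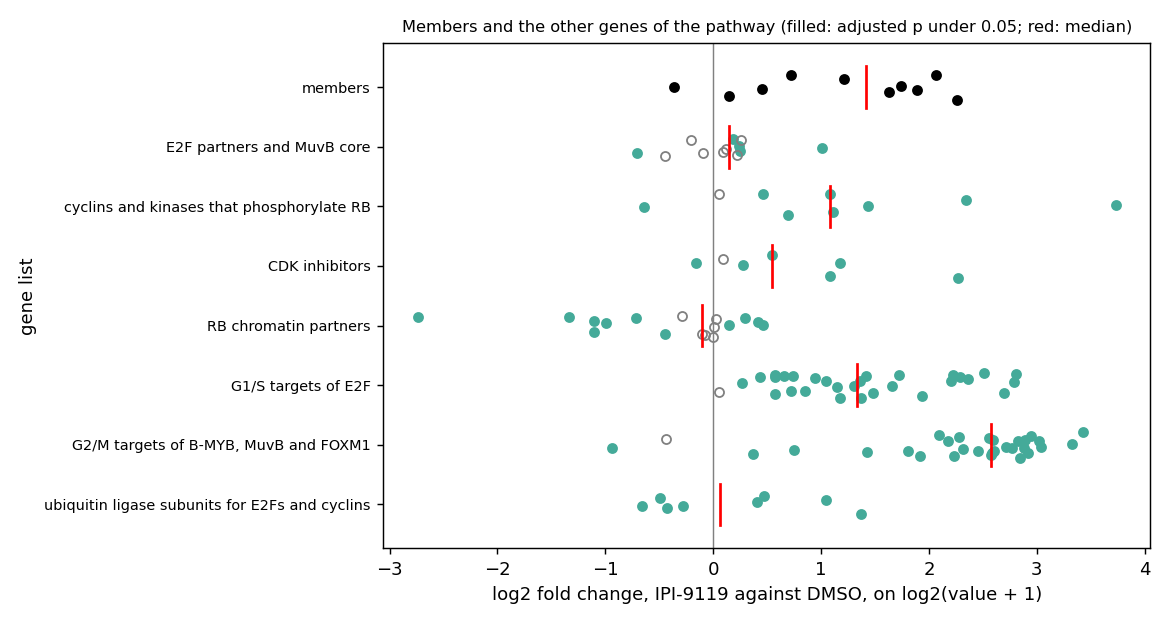
Log2 fold change (horizontal axis, on log2(value + 1)) of the 10 members and of each tested gene of the other lists, filled where the adjusted p was under 0.05, with a red line at each median. The medians are 1.42 for the members, 1.33 for replication genes and 2.58 for mitotic genes.

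Some other genes followed a member library by library, measured as the root mean square difference over the 6 libraries of log2 values centred on the DMSO mean, among 10247 genes with a mean of at least 100. The closest to RB1 were THOC5 (0.021), SLMAP (0.022) and ATP8B1 (0.030). The closest to E2F1 were GPSM2 (0.073), DIAPH3 (0.077) and CDCA8 (0.085), and to FOXM1 S1PR3 (0.13), KNTC1 (0.13) and ITPRIP (0.16). With 2 groups this measure is mostly set by the difference between them.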

How the data were processed

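The deposited table holds normalized signal per gene: per the submitters' processing notes the authors trimmed reads with Trimmomatic 0.36, aligned them to GRCh38 with STAR 2.5.2b, counted them with featureCounts (Subread 1.5.2) and used DESeq2. The annotation release and the strand setting are not given in the sources used here. Each value was a whole multiple (within 0.01) of the worth of 1 read in its library (0.894 to 1.10), so whole reads were recovered for 100% of values. The lowest gene total was 61 reads, so low genes had been removed. Of 14456 genes, 14409 matched GENCODE 29.

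Values were tested as log2(value + 1) with limma 3.58.1 (R 4.3.3; trend and robust moderation) over genes with a mean of at least 10, which removed 19, with Benjamini-Hochberg adjustment and a threshold of 0.05. The pseudocount of 1 understates the change of low genes. Length and GC content were corrected with splines of 4 degrees of freedom. The scripts were tested on simulated data. edgeR 4.0.16 and DESeq2 1.42.0 were run on the recovered reads as alternatives. Members and lists were chosen with earlier results of these data known. Genes named from a list were the 3 called genes with the largest change and, where these went 1 way, the largest the other way. CDK2, CDK4, CDK6, CCNE1, E2F4, E2F5, TFDP1, POLA1 and CENPF were named after their values were seen.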

Additional observations from a re-analysis of the deposited data

How the results depend on the processing

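Each of 18 other settings, where it tested a member, kept the direction of every member. These settings also kept every member's call except that of RBL2, which 7 ended, with log2 fold changes of 0.10 to 0.15 there; besides those given above, it did not pass without limma's trend and robust moderation (0.15, adjusted p 0.103). E2F2 and E2F7 were not tested with a minimum mean of 50, and a pseudocount of 8 moved E2F2 to 1.21. Leaving out 1 library at a time gave 8 to 9 members higher and 1 lower. edgeR called 9072 genes of all and DESeq2 8460, against 9061 by limma. Scaling moved the median of all genes by -0.006 (TMM) or 0.020 (quantile). Each scaling levels the libraries on their genes as a whole. Fold changes are thus relative to that level, and a shift shared by most genes would not show. Whether replicate numbers pair the libraries could not be settled: deviations of same-numbered libraries correlated at 0.14, 0.063 and 0.004. With the replicate block, 9 members were higher and 1 lower and 9596 genes were called; DMSO replicates 1 and 3 correlated best with their own number and DMSO replicate 2 with IPI-9119 replicate 3 (0.099). Of the 12 genes of E2F and MuvB complexes, 5 were higher and 3 lower with the block. Without division by length, the differences in family share were 2.58 percentage points for RBL1, 22.5 for E2F1, 0.878 for E2F2 and -23.4 for E2F3, and with the longest transcript's length that of RBL1 was 2.25; the values depend on length by construction. Depth limits E2F2, E2F7 and E2F8 most.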

Other observations

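Promoter matches were also counted over the other genes, a count chosen after seeing the data and given as a description. Among 10669 tested genes with a RefSeq promoter window, members left out, 33.2% rose, 32.5% fell and 8.01% rose at least 2-fold. Of the 712 with an E2F match, 36.5% rose, 31.9% fell and 9.13% rose at least 2-fold. Of the 1600 with a CHR match, 38.3% rose, 28.7% fell and 13.4% rose at least 2-fold. After the length and GC correction 35.8% of genes with an E2F match rose and 33.7% fell, and 36.9% of those with a CHR match rose and 32.1% fell, against 32.6% and 35% of all with a window.

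Among the neuroendocrine markers measured, ENO2 rose (56.6 ± 2.10 with DMSO and 113 ± 12.4 with IPI-9119, normalised counts ± SD, n = 3; 0.98 on the log2 scale, limma adjusted p 0.000108) and SCG2 fell (98.0 ± 16.3 to 57.8 ± 9.03; -0.75, adjusted p 0.00306). The other measured neuroendocrine markers did not pass. These genes were picked after their values were seen.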
